A study of Homo sapiens with 36 samples.

Results

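Epithelial cells of the colon hold on to each other through membrane proteins and are stiffened from within by keratin filaments. The 10 genes described here make proteins of both kinds: the adhesion genes CDH1, EPCAM, CLDN3, CLDN4, CLDN7 and CEACAM5, and the keratin genes KRT8, KRT18, KRT19 and KRT20. They were chosen by name, as epithelial genes of colon carcinoma cells, with earlier results of these data known. All 10 were found among the 59607 features of the total RNA tables. The cells were HCT116, an established colon carcinoma line. In the control line the cells expressed TIR1, the plant F-box protein that lets auxin direct a tagged protein to degradation. The second line, called DIS3-AID, was 1 CRISPR clone of HCT116 with constitutive TIR1 in which DIS3, a catalytic subunit of the RNA exosome, carried the auxin-inducible degron. Both lines therefore carried TIR1, and the tag was present in the untreated clone too. Each line was left untreated or given 500 uM auxin for 1 h, and ribosome-depleted total RNA was read from a cytoplasmic and a chromatin fraction, in 3 libraries each (8 groups, 24 libraries). The series' design text calls the triplicates technical, for the cytoplasmic fraction, and every p-value given here reflects how far these libraries differ among themselves, which may be technical scatter only. In bulk RNA, fewer cells that express a gene and less of its RNA per cell cannot be told apart.

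E-cadherin, the product of CDH1, joins neighbouring cells at the adherens junction and is tied to actin through catenins. Claudins form the strands of the tight junction that seal the space between cells, and EPCAM is a membrane glycoprotein of epithelial cells that binds claudin-7. KRT8 is a type II keratin that pairs with the type I keratins KRT18, KRT19 and KRT20 to build the filaments of simple epithelia. CEACAM5 is the carcinoembryonic antigen, a GPI-anchored surface protein of the colon. The RNA exosome degrades RNA from its 3′ end. Its best-known targets in the nucleus are short-lived transcripts such as those made upstream of, and divergent from, promoters.

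Library totals ran from 59.5 M to 122.6 M counts in the cytoplasm and from 50.3 M to 139 M on chromatin. Levels are given as counts-per-million values (CPM), scaled by TMM among the 12 libraries of a fraction, and differences as log2 values with their standard error (SE). A difference was called at an adjusted p below 0.05 in edgeR's quasi-likelihood test with Benjamini-Hochberg adjustment over all features. The DIS3 transcript lay at 92.4, 91.6 and 87.6 CPM in the untreated control cytoplasm and at 51.1, 52.1 and 47.1 CPM in the untreated clone, a log2 difference of -0.85 (SE 0.05, adjusted p = 2.38e-09). With auxin the clone gave 46.9, 45.2 and 45.4 CPM (adjusted p = 0.0637 against the untreated clone). Auxin acts on the tagged protein, so this transcript does not check the depletion. Of the 6 fibroblast markers listed, COL1A1 was at 8.58 to 12.3 CPM in the cytoplasm and 10.9 to 18 CPM on chromatin, and ACTA2 at 2.22 to 3.39 and 2.42 to 5.64 CPM. The sum of the 4 others, chosen after their levels were seen, reached 2.66 CPM in library 1 of the auxin-treated control cytoplasm, where COL3A1 had 103 counts against at most 7 in each other cytoplasm library, and at most 0.592 CPM in every other library. The sum of 4 blood genes was at most 0.496 CPM in every library.

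KRT8 (ENSG00000170421.12, chromosome 12, 52897187 to 52949954, minus strand, hg38 with GENCODE 29) and KRT18 (ENSG00000111057.10, chromosome 12, 52948871 to 52952901, plus strand) overlap, and 525 exon bases are shared between them on opposite strands. CLDN3 (ENSG00000165215.6, chromosome 7, 73768997 to 73770270, minus strand, 1 exon) and CLDN4 (ENSG00000189143.9, chromosome 7, 73799542 to 73832693, plus strand) are neighbours. KRT20 (ENSG00000171431.3, chromosome 17, 40875941 to 40885227, minus strand) and KRT19 (ENSG00000171345.13, chromosome 17, 41523617 to 41528308, minus strand) lie in the type I keratin cluster. CLDN7 (ENSG00000181885.18, 7259903 to 7263983, minus strand) is elsewhere on chromosome 17. CDH1 (ENSG00000039068.18) covers 68737225 to 68835548 of chromosome 16 on the plus strand, EPCAM (ENSG00000119888.10) 47345158 to 47387601 of chromosome 2 on the plus strand, and CEACAM5 (ENSG00000105388.15) 41708585 to 41729798 of chromosome 19 on the plus strand. The library kit marks strand, but the strand setting of the counting is not given in the sources used here. Counts of KRT8 and KRT18 can therefore share reads, and so can those of CDH1 with its antisense gene AC099314.1 (347 exon bases) and of CLDN7 with AC003688.1 (269 exon bases, same strand).

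Promoter sequences were taken from RefSeq (GRCh38.p14), which held an entry for CLDN3, CLDN4, CLDN7, KRT8, KRT20 and CEACAM5. CDH1, EPCAM, KRT18 and KRT19 had none in the table. The 250 bases before the start of CLDN3, the member with the largest fall in the auxin-treated clone, are shown with GC boxes (GGGCGG, or CCGCCC on the other strand) in capitals.
CLDN3 upstream, chr7:73770271-73770520, minus strand: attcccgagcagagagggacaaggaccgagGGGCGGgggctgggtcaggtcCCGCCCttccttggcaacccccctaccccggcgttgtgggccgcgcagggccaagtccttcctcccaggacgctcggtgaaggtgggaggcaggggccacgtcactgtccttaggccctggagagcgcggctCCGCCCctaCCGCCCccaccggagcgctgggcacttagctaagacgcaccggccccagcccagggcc
The window held 4 GC boxes and no E-box of the form CAGGTG or CACCTG, the sequence that SNAI1 and ZEB1 are known to bind. By the same search, 42.6% of 35116 promoter windows of this length held a GC box and 17.5% this E-box. CLDN7 had 4 such E-boxes in the 250 bases before one of its 2 starts in the table, a window that overlaps annotated exons. The pair nearest the start is shown in capitals, since SNAI1 and ZEB1 are among the regulators described further on.
CLDN7 site, chr17:7262479-7262508, minus strand: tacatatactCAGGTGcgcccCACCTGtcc

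Per kilobase of exon, the keratins of simple epithelia were far above the adhesion genes in the cytoplasm. Exon length here joins the exons of all annotated transcripts, 6881 bases for KRT8, 4702 for CLDN4 and 2336 for KRT19. The order given depends on these lengths, which can exceed the transcript in use. Without division by length, KRT8 (1510 CPM) was above KRT19 (624) in the untreated control cytoplasm, and CLDN4 (69.3) above CLDN7 (44). In the untreated control the order was KRT19 at 267 CPM per kb, KRT8 at 220 and KRT18 at 187, then EPCAM at 35.4, CLDN7 at 17.6 and CLDN4 at 14.7, then CLDN3 at 3.15 and CDH1 at 2.8. KRT20 was at 0.169. The 3 libraries of each gene did not overlap with those of its neighbour in this order. In the untreated clone KRT19 and KRT8 (both 269 CPM per kb) overlapped, and so did CDH1 (3.26) and CLDN3 (3.23). On chromatin the untreated control had KRT8 at 19.8 CPM per kb, KRT19 at 18, EPCAM at 15.9, KRT18 at 14.7, CDH1 at 11.6, CLDN4 at 6.76, CLDN7 at 3.11 and CLDN3 at 0.101, again without overlap between neighbours. Per kilobase, the keratins thus stood far above EPCAM in the cytoplasm and close to it on chromatin. In the clone's chromatin the first 4, KRT19 (18.1), KRT8 (16.7), EPCAM (15.8) and CDH1 (14.7), each overlapped with the next, and KRT18 (10.5) lay below them.

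Both markers that belong to differentiated colon epithelium were nearly absent. CEACAM5 gave 9 counts in all 12 cytoplasm libraries together and 5 on chromatin. In the untreated control cytoplasm it had 0 of 308.8 M counts, which allows a level of up to 0.00971 CPM (3 counts over the group, counting error only). KRT20 had 30, 25 and 35 counts in the untreated control cytoplasm and 0 to 3 counts in each chromatin library. Its cytoplasm levels were 0.249 to 0.433 CPM in the untreated control, 0.306 to 0.455 in the treated control, 0.157 to 0.256 in the untreated clone and 0.13 to 0.227 in the treated clone, and treated and untreated libraries overlapped in each line. Of the 12 other genes of intestinal differentiation listed, 3 passed the filter on low counts in the cytoplasm; VIL1, which makes villin of the brush border, had 2, 4 and 2 counts in the untreated control. The keratins KRT8, KRT18 and KRT19, CDH1, EPCAM and the claudins thus bear out a label of epithelium, which is not particular to the colon. CEACAM5 and KRT20, the members of differentiated colon epithelium, do not bear out theirs. CEACAM5 was tested in neither fraction and KRT20 in the cytoplasm only, so 9 members were tested in the cytoplasm and 8 on chromatin.

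**Figure D1:**
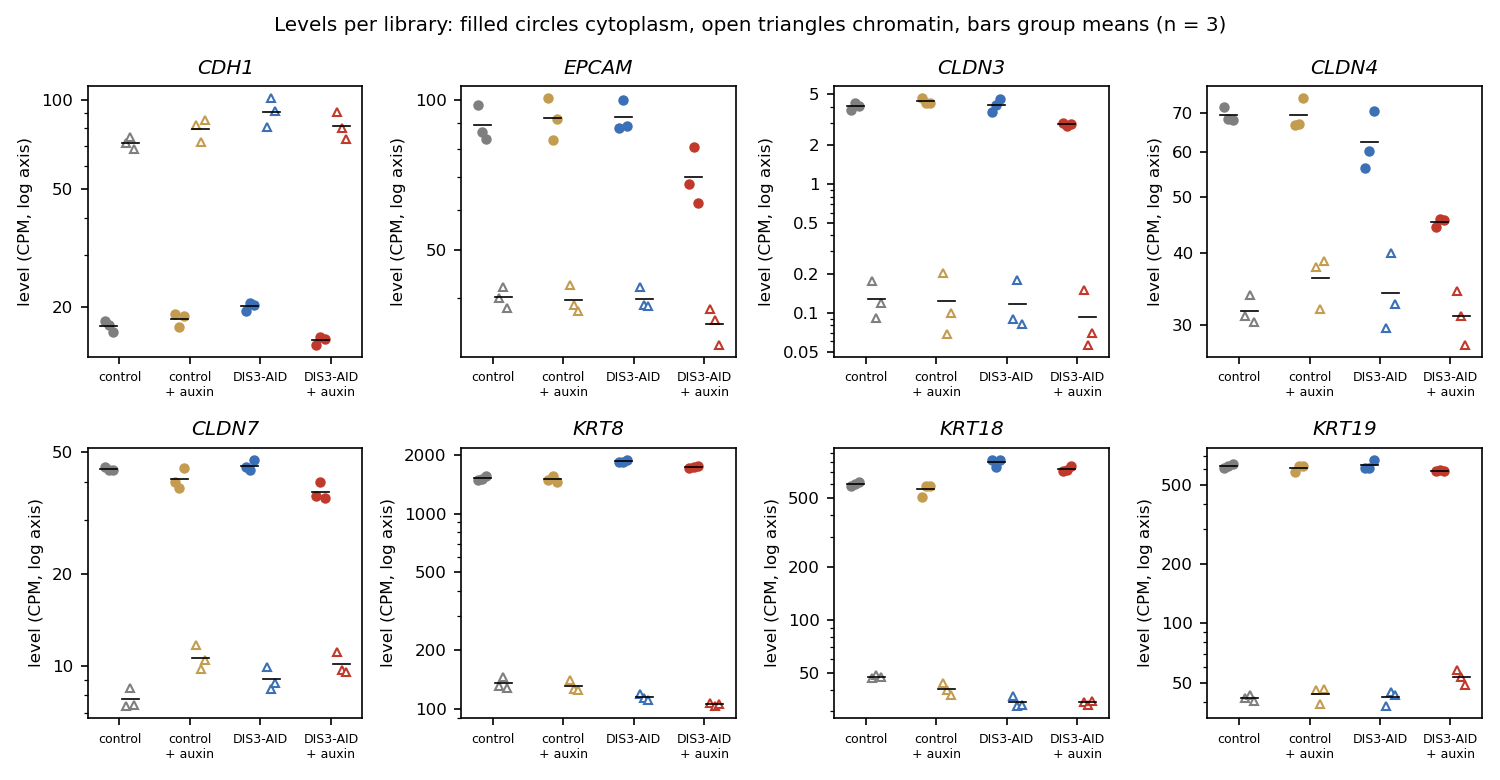
CPM of 8 genes in each library on log axes, scaled by TMM within each fraction, for untreated and auxin-treated control and DIS3-AID cells. Filled circles are cytoplasm libraries, open triangles chromatin libraries and bars group means (n = 3); CDH1 is the gene whose chromatin levels lie above its cytoplasm levels, and the auxin-treated clone has the lowest cytoplasm levels of CDH1, EPCAM, CLDN3 and CLDN4.

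When auxin was given to the DIS3-AID cells, the cytoplasmic RNA of all 5 adhesion genes tested fell by 0.29 to 0.49 on the log2 scale within 1 h, while none of the 4 keratins passed the test. CDH1 had 19.4, 20.7 and 20.4 CPM in the untreated clone and 15, 15.9 and 15.6 CPM with auxin. The groups did not overlap, and the auxin-treated libraries were also below all 6 control libraries (16.5 to 19 CPM). The log2 difference was -0.38 (SE 0.06, adjusted p = 5.13e-05).

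EPCAM went from 87.9, 100 and 88.8 CPM to 67.9, 80.4 and 62.2 CPM in the clone, without overlap (log2 difference -0.40, SE 0.09, adjusted p = 0.00338). CLDN3 went from 3.63, 4.08 and 4.62 CPM to 2.97, 2.83 and 2.94 CPM (log2 difference -0.49, SE 0.10, adjusted p = 0.000468). CLDN4 went from 56.1, 60.2 and 70.6 CPM to 44.5, 45.9 and 45.7 CPM (log2 difference -0.46, SE 0.07, adjusted p = 3.44e-05). For both claudins each treated library was below each other cytoplasm library, control ones included. CLDN7 went from 44.6, 43.8 and 47.2 CPM to 35.8, 39.8 and 35.5 CPM (log2 difference -0.29, SE 0.06, adjusted p = 0.00107). Here the treated clone lay below the untreated clone but overlapped with the auxin-treated control (38.3 to 44.5 CPM). AC003688.1, which shares exon bases with CLDN7, went from 140, 131 and 141 CPM to 118, 125 and 114 CPM in the clone. In the control it had 141, 136 and 146 CPM untreated and 125, 130 and 138 CPM with auxin. The division of reads between CLDN7 and AC003688.1 was not tested.

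The keratins moved less. KRT8 had 1830, 1830 and 1880 CPM in the untreated clone and 1710, 1720 and 1740 CPM with auxin, a log2 difference of -0.10 (SE 0.04, adjusted p = 0.0562). KRT18 gave a log2 difference of -0.13 (SE 0.06, adjusted p = 0.0763), KRT19 one of -0.09 (SE 0.05, adjusted p = 0.135) and KRT20 one of -0.05 (SE 0.35, adjusted p = 0.923). The groups did not overlap for KRT8 and KRT19, and they did for KRT20 and, by its second untreated library, for KRT18. KRT8 was called with DESeq2 (adjusted p = 0.035).

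Of all 23027 features tested, 34.3% were called in this comparison and 13.2% were called lower; among protein-coding genes 20% were called lower, while 21.1% of all features were called higher. Against these shares, 5 of the 9 members tested were called, all lower. The median log2 difference was -0.289 over the 9 members, -0.051 over all features and -0.1 over protein-coding genes. The scaling bears on this split: 61.5% of all called features were higher, 89.1% with library sizes alone and 87.2% with TMM on protein-coding genes. The 5 adhesion genes were called lower under both other scalings, with library sizes alone at -0.28 for CDH1, -0.30 for EPCAM, -0.39 for CLDN3, -0.36 for CLDN4 and -0.19 for CLDN7. KRT8 was then at 0.00 and KRT19 at 0.01. Within each library, whatever the scaling, the 5 adhesion genes had 6.48, 7.17 and 6.88 counts per 100 counts of KRT8, KRT18 and KRT19 in the untreated clone and 5.53, 6.09 and 5.25 with auxin. The control had 8.82, 8.05 and 7.68 untreated and 9.03, 7.6 and 8.77 with auxin, so the treated clone was lowest of the 4 groups and the control groups overlapped. The summed level of 3 endothelial markers, a list with VWF (1.62, called) and PECAM1 (1.20, called), was 2.62 to 3.1 CPM in the treated clone's cytoplasm, 0.817 to 1.16 CPM in the other cytoplasm groups and 3.72 to 5.2 CPM on chromatin, and its part in these results was not tested.

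**Figure D2:**
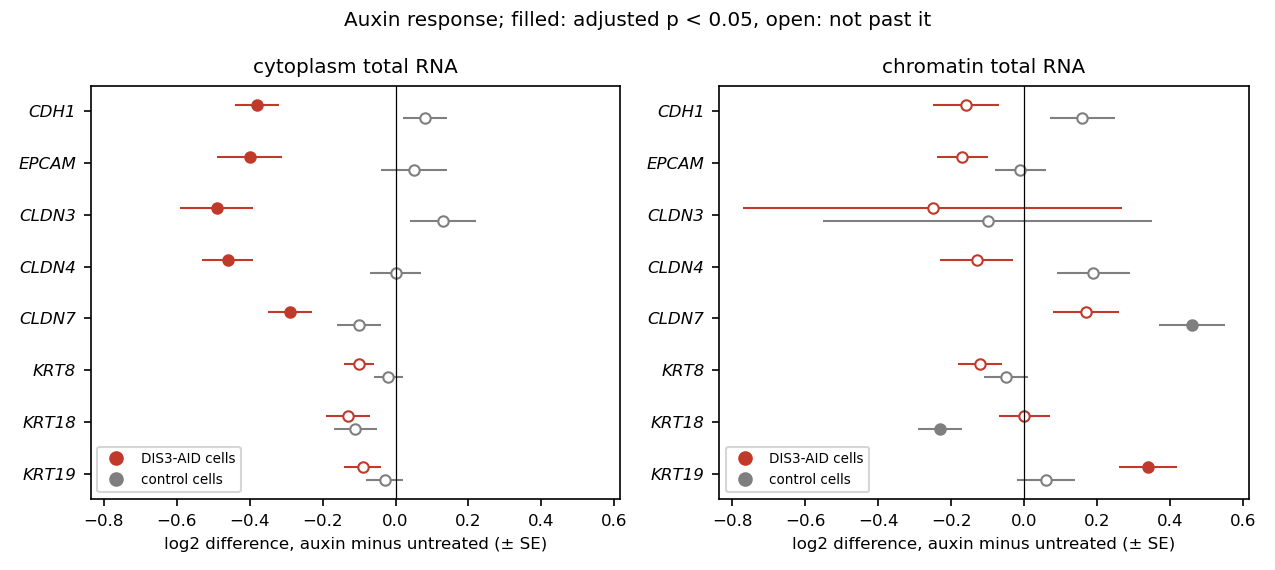
Log2 difference of auxin-treated minus untreated libraries with its SE, for DIS3-AID (red) and control cells (grey), in the cytoplasm (left) and on chromatin (right), n = 3 per group. Filled points passed adjusted p < 0.05; in the cytoplasm the 5 adhesion genes of the clone lie at -0.29 to -0.49, and on chromatin the called values are KRT19 in the clone and CLDN7 and KRT18 in the control.

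In the control cells, which carry no tag on DIS3, 0.0478% of all features were called with auxin in the cytoplasm (0.0217% higher and 0.0261% lower) and none of the 9 members. None of the members reached an unadjusted p under 0.05 either, and DESeq2 called none. CLDN3 gave 0.13 (SE 0.09), CDH1 0.08 (SE 0.06), EPCAM 0.05 (SE 0.09), CLDN4 0.00 (SE 0.07) and CLDN7 -0.10 (SE 0.06) on the log2 scale. The count stayed at 0 without library 1 of the auxin-treated control, the one with COL3A1 counts.

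The auxin responses of the 2 lines were then compared directly, as the response of the clone minus that of the control. Of all features 19.4% were called, 16.1% upward and 3.31% downward, and 4 of 9 members were called, all downward. These were CLDN3 (-0.62, SE 0.13, adjusted p = 0.00146), CDH1 (-0.46, SE 0.08, adjusted p = 0.000395), CLDN4 (-0.46, SE 0.10, adjusted p = 0.00191) and EPCAM (-0.44, SE 0.13, adjusted p = 0.025). The value of CLDN7 was -0.18 (SE 0.09, adjusted p = 0.158). EPCAM's call was the least firm. It was lost with library sizes alone (-0.36, adjusted p = 0.0559), with TMM on protein-coding genes (-0.37, adjusted p = 0.0669) and without any one of 7 libraries: untreated control 2 or 3, auxin-treated control 1 or 3, untreated clone 2, auxin-treated clone 1 or 3. The adjusted p over these single omissions ran up to 0.0912. Without library 1 of the auxin-treated control 3 members remained, CLDN3 at -0.56, CDH1 at -0.41 and CLDN4 at -0.47.

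On chromatin the adhesion genes did not pass the test in the auxin-treated clone, and 1 keratin rose. KRT19 had 38.2, 44.8 and 43.6 CPM in the untreated clone and 58.2, 53.4 and 48.6 CPM with auxin. The treated libraries were the 3 highest of the 12 chromatin libraries, and the log2 difference was 0.34 (SE 0.08, adjusted p = 0.00409). It was 1 of 8 members called, beside 20.5% of 24966 features called, 11% higher and 9.54% lower. Within each library KRT19 gave 31.9, 39.3 and 39.1 counts per 100 of KRT8 in the untreated clone and 53.8, 51.5 and 46 with auxin, again without overlap. CDH1 was at -0.16 (SE 0.09, adjusted p = 0.208; called at -0.24 without untreated library 1, adjusted p = 0.0466), EPCAM at -0.17 (SE 0.07, adjusted p = 0.0888; called at -0.22 without treated library 1, adjusted p = 0.0453) and CLDN4 at -0.13 (SE 0.10, adjusted p = 0.409). CLDN3 had 3 to 19 counts per chromatin library, and its value of -0.25 had an SE of 0.52.

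In the control cells' chromatin 17% of all features were called between auxin-treated and untreated libraries, in contrast to the 0.0478% in their cytoplasm. With single libraries left out, 2313 to 4704 features were called. Whether the chromatin triplicates are separate preparations is not stated, so auxin and a difference between preparations cannot be told apart. CLDN7 had 7.38, 8.47 and 7.42 CPM untreated and 11.7, 9.74 and 10.4 CPM with auxin, without overlap (log2 difference 0.46, SE 0.09, adjusted p = 0.00178; 9.02% of features were called higher and 7.97% lower). KRT18 had 46.8, 48.2 and 47.1 CPM untreated and 43.8, 40 and 37.4 CPM with auxin (log2 difference -0.23, SE 0.06, adjusted p = 0.02). This call was lost without any one of 4 libraries, untreated 2 or 3 and auxin-treated 2 or 3, with adjusted p of up to 0.0712. The gene AC003688.1, which shares exon bases with CLDN7 on the same strand, moved by 0.26 (adjusted p = 0.00618) in the same comparison.

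Between the lines, 17.7% of features were called for their chromatin response to auxin (8.54% upward and 9.2% downward) and 0 of 8 members. At an unadjusted p under 0.05 there were 5 members, CDH1 (-0.32), CLDN4 (-0.32), CLDN7 (-0.30), KRT19 (0.28) and KRT18 (0.23), with adjusted p from 0.0751 to 0.138. DESeq2 also called 0, and without the filter on low counts 3 were called, CDH1, CLDN4 and KRT19. Leaving out 1 library gave 3 calls without library 1 of the untreated clone (CDH1 at -0.40, CLDN4 at -0.42 and KRT18 at 0.29). It gave 1 call each without auxin-treated control 1 (KRT18), 2 (CDH1) or 3 (KRT19) and without auxin-treated clone 1 (CDH1) or 3 (KRT19).

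The untreated clone already differed from the control, and its keratins did so in opposite directions in the 2 fractions. In the cytoplasm KRT18 had 588, 603 and 616 CPM in the control and 825, 754 and 821 CPM in the clone (log2 difference 0.41, SE 0.06, adjusted p = 5.65e-05). KRT8 had 1480, 1500 and 1550 CPM in the control and 1830, 1830 and 1880 CPM in the clone (log2 difference 0.29, SE 0.04, adjusted p = 5.05e-05). On chromatin KRT18 had 46.8, 48.2 and 47.1 CPM in the control and 36.6, 32.2 and 32.5 CPM in the clone (log2 difference -0.49, SE 0.06, adjusted p = 1.81e-05). KRT8 went from 132, 147 and 129 CPM to 120, 114 and 111 CPM there (log2 difference -0.24, SE 0.06, adjusted p = 0.00534). The lines did not overlap in any of these 4 pairs of groups. Tested as 1 difference, chromatin minus cytoplasm, the gap was -0.89 for KRT18 (SE 0.09, adjusted p = 1.16e-08) and -0.53 for KRT8 (SE 0.08, adjusted p = 2.19e-05). These were 2 of 9 members, beside 13.2% of all features called, 6.58% higher and 6.61% lower. Without chromatin library 1 of the untreated clone CLDN4 was called as well (0.36, adjusted p = 0.0399). KRT19, the third abundant keratin, showed 0.01 (SE 0.05) in the cytoplasm and 0.01 (SE 0.08) on chromatin. The ratio of the pair, which no scaling touches, was 39.7, 40.1 and 39.6 counts of KRT18 per 100 of KRT8 in the control cytoplasm and 45, 41.1 and 43.7 in the clone. On chromatin it was 35.5, 32.7 and 36.7 in the control and 30.6, 28.3 and 29.2 in the clone, so KRT18 shifted further than KRT8 in both directions.

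Reads of keratin pseudogenes were a small addition in the cytoplasm and a larger one on chromatin. The 50 genes named KRT8P plus a number summed to 0.984% of the KRT8 level in the untreated control cytoplasm and to 23.4% on chromatin, and the 67 named KRT18P to 0.3% and 36.5% of KRT18. The highest on chromatin were KRT8P4 (18 CPM) and KRT18P31 (7.68 CPM), and both were lower in the clone (-0.39, adjusted p = 0.000368, and -0.29, adjusted p = 0.00316). The whole KRT18P sum on chromatin was 17.3 CPM in the control and 16.4 CPM in the clone, where it came to 48.5% of KRT18, and the KRT8P sum was 31.9 and 28 CPM. How reads were divided between the keratins and these near copies was not tested. The pseudogene sums do not measure an error in KRT8 or KRT18, whose chromatin values are uncertain to an unknown extent.

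Among the adhesion genes, CDH1 was higher in the clone in both fractions. It had 18, 17.4 and 16.5 CPM in the control cytoplasm and 19.4, 20.7 and 20.4 CPM in the clone (log2 difference 0.22, SE 0.06, adjusted p = 0.0125). On chromatin it had 71.3, 75.1 and 68 CPM in the control and 80.7, 101 and 91.6 CPM in the clone (log2 difference 0.35, SE 0.08, adjusted p = 0.00442). Neither pair of groups overlapped. EPCAM gave 0.05 (SE 0.09) in the cytoplasm and -0.01 (SE 0.07) on chromatin, and CLDN4 -0.15 (SE 0.07, adjusted p = 0.124; called at -0.24 without clone library 3, adjusted p = 0.00819) and 0.11 (SE 0.10). CLDN7 gave 0.23 (SE 0.09, adjusted p = 0.059) on chromatin, which passed the threshold with library sizes alone (adjusted p = 0.0293) and without control library 2 (0.29, adjusted p = 0.0401). In all, 3 of 9 members were called in the cytoplasm, where 22.1% of features were (9.67% higher, 12.4% lower), and 3 of 8 on chromatin, where 32.5% were (15.2% higher, 17.4% lower). The medians were 0.04 over members and -0.012 over all features in the cytoplasm.

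**Figure D3:**
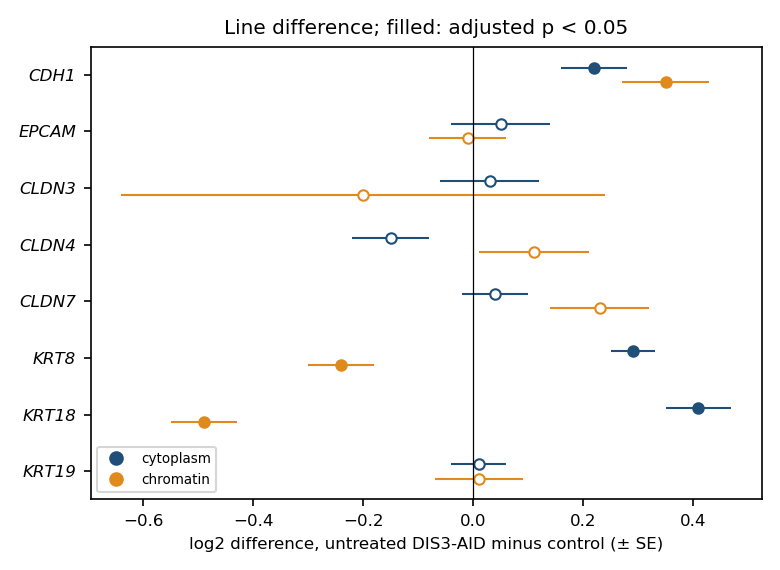
Log2 difference of untreated DIS3-AID minus untreated control libraries with its SE, in the cytoplasm (blue) and on chromatin (orange), n = 3 per group. Filled points passed adjusted p < 0.05; KRT8 and KRT18 lie above 0 in the cytoplasm and below 0 on chromatin, and CDH1 lies above 0 in both.

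CDH1 stood apart from the other members in its balance between the fractions. For this comparison all 24 libraries were scaled together, and CPM on that scale are used in this paragraph. CPM are shares of a library's counts, so equal CPM need not be equal amounts of RNA in the 2 fractions. The percentages therefore do not give the part of a gene's RNA that lies on chromatin. In the untreated control the mean of CDH1 was 22 CPM in the cytoplasm and 58.3 CPM on chromatin, or 265% of the cytoplasm level (log2 difference 1.40, SE 0.08, adjusted p = 2.41e-19). The other members were lower on chromatin: CLDN4 at 29.4% and EPCAM at 28.7% of the cytoplasm level, CLDN7 at 11.3%, KRT8 at 5.78%, KRT18 at 5.05%, KRT19 at 4.33% and CLDN3 at 2.06%. KRT20 had 90 counts in the cytoplasm and 1 on chromatin, a ratio of 139 with an exact 95% counting interval of 24.4 to 5569. All 9 members tested were called, beside 90.2% of all features (46.2% higher and 44% lower), so a call is the usual outcome here. The median log2 difference was -4.115 over members, 0.096 over all features and -0.558 over protein-coding genes. With library sizes alone the median over all features moved to 0.755, and the members kept their directions, CDH1 at 2.07, EPCAM at -1.13 and KRT19 at -3.87. In the untreated clone, where 89.3% of features were called (46.2% higher and 43.2% lower), CDH1 was at 290%, CLDN4 at 35.3%, EPCAM at 27.8%, CLDN7 at 12.9%, KRT19 at 4.32%, KRT8 at 4%, KRT18 at 2.71% and CLDN3 at 1.83% of the cytoplasm level. The order followed in part the length of the annotated gene, taken as the outer span over all its transcripts. The spans of CDH1 (98324 bases), EPCAM (42444) and CLDN4 (33152) were long. Those of CLDN7 (4081), KRT18 (4031), KRT19 (4692), KRT20 (9287) and CLDN3 (1274) were shorter, while KRT8 (52768 bases) had a low chromatin share. For KRT8, on the minus strand, the promoter entry put the start just below base 52926470. A KRT8 transcript from that start covers only part of the span, which reaches base 52949954. For CLDN4 the promoter entry put the start just after base 73830995, near the gene's end at 73832693. A transcript from there is far shorter than that span, and which transcripts were in use was not tested.

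**Figure D4:**
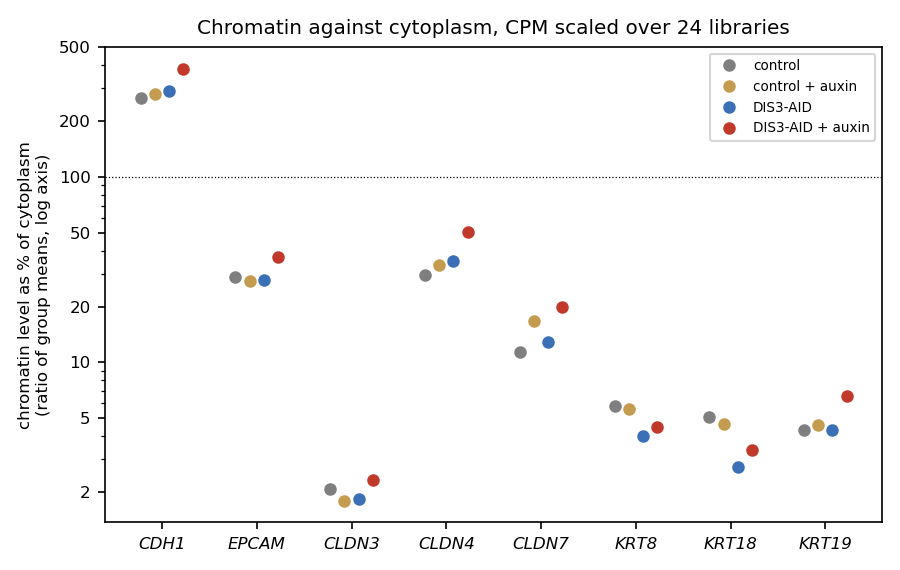
Chromatin level as a percentage of the cytoplasm level, from means of 3 libraries scaled together over 24 libraries, on a log axis, for 8 genes in untreated and auxin-treated control and DIS3-AID cells. In the untreated control CDH1 lies at 265%, above the dotted line of equal CPM, and the other 7 genes lie between 2.06% and 29.4%. Equal CPM need not be equal amounts of RNA.

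The auxin response of the clone was also compared between the fractions. On the joint scale 6 of 9 members had a higher response on chromatin than in the cytoplasm, beside 33.1% of features called, 22.1% higher and 11% lower. Among protein-coding genes 36.3% were called higher and 4.54% lower. The values were 0.64 for CLDN7 (adjusted p = 1.58e-05), 0.62 for KRT19 (adjusted p = 1.99e-06), 0.51 for CLDN4, 0.41 for EPCAM, 0.40 for CDH1 and 0.32 for KRT18. The median was itself 0.16 over all features and 0.233 over protein-coding genes on that scale. Scaling the 24 libraries together lowered the auxin-treated cytoplasm of the clone: EPCAM went from 117 to 77.8 CPM on the joint scale and from 92.4 to 70.2 CPM when the cytoplasm was scaled alone. With TMM within each fraction, an alternative chosen after the data were seen, 2 members were called, CLDN7 (0.43, adjusted p = 0.00429) and KRT19 (0.41, adjusted p = 0.00104). The same 2 were called with TMM on protein-coding genes and, at smaller values, with library sizes alone (CLDN7 at 0.31, adjusted p = 0.0447, and KRT19 at 0.28, adjusted p = 0.0325), where KRT18 was at -0.02 (adjusted p = 0.931). The control's response was not tested between the fractions. With each fraction scaled alone, CLDN7 moved with auxin by 0.46 on chromatin and -0.10 in the cytoplasm in the control. In the clone it moved by 0.17 and -0.29, so the CLDN7 value is not particular to the clone. KRT19 moved by 0.06 and -0.03 in the control.

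A non-coding transcript next to EPCAM was higher in the auxin-treated clone's cytoplasm, where rises were frequent. In that comparison 21.1% of all features tested were called higher, against 7.25% of protein-coding genes, so rises were more frequent outside protein-coding genes. AC106869.1, a long non-coding RNA that begins 84 bases from EPCAM and runs the other way, had 0.67, 0.654 and 0.876 CPM in the untreated clone's cytoplasm and 2.16, 2.22 and 1.58 CPM with auxin, above all 9 other cytoplasm libraries. The log2 difference was 1.44 (SE 0.19, adjusted p = 6.2e-06), the control gave 0.32 (SE 0.20, adjusted p = 0.909), and the responses of the lines differed by 1.12 (SE 0.28, adjusted p = 0.007). On chromatin this RNA was higher with auxin in both lines, by 0.38 in the clone (adjusted p = 0.00359) and by 0.41 in the control (adjusted p = 0.00272). EPCAM itself fell by 0.40 on the log2 scale in the clone's cytoplasm, and a link between the neighbours was not tested.

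The other genes of the same structures were read from lists. In the clone's cytoplasm with auxin, 6 of 9 adherens junction partners tested were lower, 6 of 13 tight junction partners, 7 of 11 genes of desmosomes and hemidesmosomes and 7 of 8 relatives and proteases of EPCAM, and none of these was higher. Their medians were -0.22, -0.17, -0.31 and -0.38 on the log2 scale. The background in this comparison was 13.2% of all features and 20% of protein-coding genes called lower, with a median of -0.1 over protein-coding genes. With library sizes alone the counts were 3, 3, 5 and 6 lower, with 1 tight junction gene higher. The background differed under that scaling: 6262 of 23027 features were called, and 89.1% of those called were higher. NECTIN2, a nectin of the adherens junction, fell by 0.47 (adjusted p = 0.000482) and OCLN, occludin of the tight junction, by 0.43 (adjusted p = 0.000769). Of the desmosomal cadherins, DSC2 was at -0.50 (adjusted p = 0.000255) and DSG2 at -0.38 (adjusted p = 0.000161). The protease inhibitor SPINT1 was at -0.45 (adjusted p = 7.53e-06) and the tetraspanin CD9 at -0.42 (adjusted p = 3.8e-05). The response differed from that of the control for DSC2 (-0.56, adjusted p = 0.0028), DSG2 (-0.39, adjusted p = 0.00487), SPINT1 (-0.35, adjusted p = 0.00541) and CD9 (-0.39, adjusted p = 0.00398), and not for NECTIN2 (adjusted p = 0.0584) or OCLN (adjusted p = 0.0629).

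**Figure D5:**
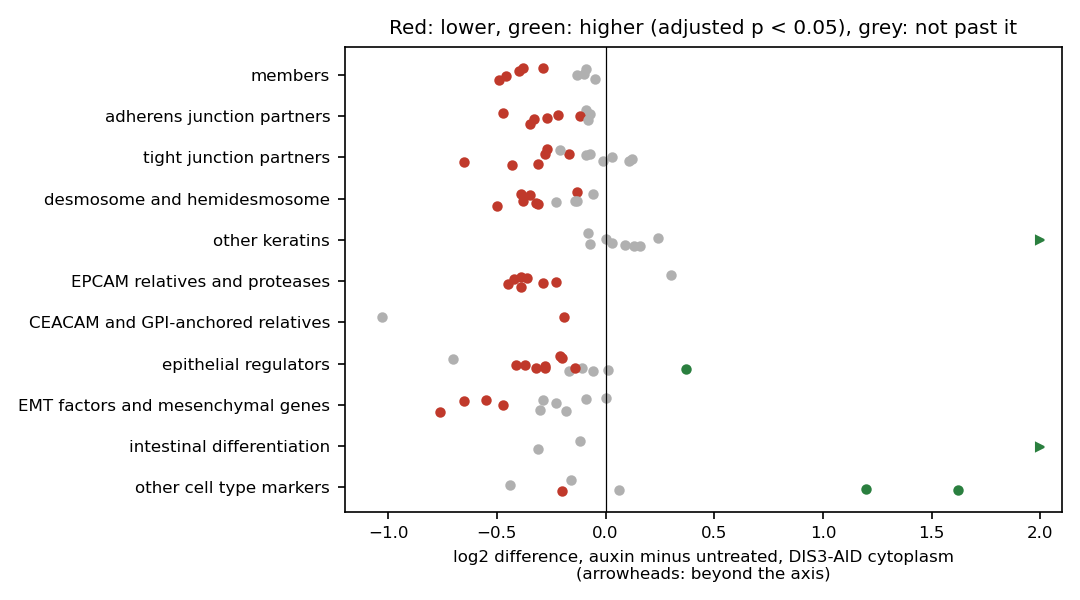
Log2 difference of auxin-treated minus untreated DIS3-AID cytoplasm for each tested gene of the 11 lists, 1 point per gene, with a small vertical spread for legibility. Red points were lower and green points higher at adjusted p < 0.05, grey points did not pass, and arrowheads mark KRT86 at 3.29 and GPA33 at 2.08, beyond the axis.

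Among regulators of the epithelial state and genes of the mesenchymal state alike, most calls in this comparison were lower, as they were among all protein-coding genes tested (20% lower and 7.25% higher). Of 14 epithelial regulators tested, 8 were lower and 1 was higher. (With library sizes alone 3 were lower and 1 was higher, beside 6262 features called, 89.1% of them higher.) ELF3 was at -0.41 (adjusted p = 1.46e-05) and KLF5 at -0.37 (adjusted p = 0.00658), while OVOL2, a repressor of mesenchymal genes, was at 0.37 (adjusted p = 3.6e-06). Of 10 mesenchymal genes and factors of epithelial-mesenchymal transition, 4 were lower and 0 higher, under both other scalings too. SNAI1, a repressor of CDH1, was at -0.55 (adjusted p = 1.15e-06) and FN1, fibronectin, at -0.65 (adjusted p = 0.00254). The response differed between the lines for ELF3 (-0.61, adjusted p = 9.61e-06), OVOL2 (0.31, adjusted p = 0.00165), SNAI1 (-0.62, adjusted p = 3.38e-05) and FN1 (-0.75, adjusted p = 0.0116), and KLF5 did not pass (-0.27, adjusted p = 0.192). In the untreated clone against the control 2 of 10 mesenchymal genes were higher and 3 lower, and 2 of 14 epithelial regulators were higher and 4 lower, beside 8.36% of protein-coding genes called higher and 17.6% called lower. The matrix protein SPARC was at 3.21 (adjusted p = 3.36e-11), the mesenchymal filament VIM at -1.97 (adjusted p = 1.05e-10) and ZEB1 at -0.70 (adjusted p = 9.77e-06). Of the regulators, GRHL2 was at 0.51 (adjusted p = 2.3e-06), EHF at 0.50 (adjusted p = 1.96e-05) and HNF4A, a regulator of gut epithelium, at -1.73 (adjusted p = 5.58e-11).

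Of the 9 other keratins tested, KRT86, a hair keratin of type II, was the 1 called in the auxin-treated clone's cytoplasm (2 were with library sizes alone). It had 1.68, 1.61 and 1.58 CPM in the untreated clone's cytoplasm and 17, 15.7 and 15 CPM with auxin (log2 difference 3.29, adjusted p = 1.93e-14), and 1.14 to 1.67 CPM in the 6 control libraries. Its treated libraries were the 3 highest of the 12. On chromatin KRT86 stood at 5.08 CPM untreated and 5.78 CPM with auxin in the clone (log2 difference 0.19, adjusted p = 0.186). Between the untreated lines 5 of the 9 were higher in the clone and 1 was lower, beside 9.67% of all features called higher and 12.4% lower. KRT23, a type I keratin, had 1.07, 0.997 and 1.08 CPM in the control cytoplasm and 3.09, 3.05 and 3.29 CPM in the clone (log2 difference 1.58, adjusted p = 9.36e-08), and KRT81 was at 0.93 (adjusted p = 0.00113). KRT14, a keratin of basal epithelial cells, had 1, 1 and 0 counts in the control and 15, 11 and 6 in the clone. The lower one was KRT7, a keratin of ductal epithelia, with 12.5, 11.8 and 12.7 CPM in the control and 4.83, 4.62 and 4.22 CPM in the clone (log2 difference -1.43, adjusted p = 2.02e-10). Of the smaller lists in the treated clone's cytoplasm, 1 of 2 relatives of CEACAM5 was lower (0 with library sizes alone), and 1 of 3 genes of intestinal differentiation was higher, GPA33, the surface antigen A33 (18, 22 and 5 counts untreated; 97, 44 and 53 with auxin). Of 6 markers of other cell types 2 were higher and 1 was lower, the latter not with library sizes alone. The counts for auxin in the clone's cytoplasm, KRT86 included, stand beside 21.1% of all features called higher and 13.2% lower. Those with library sizes alone stand beside 6262 of 23027 features called, 89.1% of them higher.

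On chromatin, with auxin in the clone, 9.54% of all features and 13.4% of protein-coding genes were called lower. The differences of the lists between the fractions were not tested. Lower were 1 of 10 adherens junction partners, 2 of 13 tight junction partners with 1 higher, 5 of 11 genes of desmosomes and hemidesmosomes, 2 of 8 relatives and proteases of EPCAM, 5 of 14 epithelial regulators, 3 of 10 mesenchymal genes and 1 of 4 genes of intestinal differentiation. The laminin chain LAMA3 (-0.43) and DSC2 (-0.38) were among them, as were the tight junction protein CGN (-0.54) and SNAI1 (-0.56). In the control's cytoplasm no gene of any list was called with auxin.

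Pearson correlations were taken over the 8 group means of log2 CPM, with 0.1 CPM added before the log, each centred on its fraction's mean. KRT8 and KRT18 had a correlation of 0.95, EPCAM and CLDN3 one of 0.98, and EPCAM and CLDN4 one of 0.89. The chromatin means of CLDN3 were 0.0925 to 0.129 CPM, near the added value, which damps the differences among them. CDH1 and EPCAM gave 0.56, and KRT8 and KRT19 -0.54. Among all tested protein-coding genes the pattern most like that of EPCAM was KIDINS220 (0.985), that of CLDN4 SERINC3 (0.989), that of CLDN3 LAMP3 (0.992), that of CLDN7 PHF5A (0.978), that of CDH1 CPSF7 (0.965), that of KRT8 POLG (0.989), that of KRT18 IFRD1 (0.976) and that of KRT19 GPANK1 (0.985). These are the highest among all genes tested, over 8 points that share libraries and scaling, and describe likeness only.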

How the data were processed

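Strand-marked, ribosome-depleted total RNA libraries (24) were analysed; polyA libraries of the series were not used here. The deposited values are read counts per feature, made by the authors; STAR 2.7.3a, Cufflinks 2.2.1, featureCounts 2.0.0 and hg38 are named, per the submitters' processing notes, without roles or parameters. Symbols, positions and exon lengths came from GENCODE 29. The members and gene lists were chosen with earlier results of these data known. From each further list, up to 4 genes with the largest change among those called were eligible to be named; neighbouring non-coding genes, keratin pseudogenes and the genes most alike in pattern completed the rule. DIS3, COL3A1, VIL1 and AC003688.1 were named outside it, after their values were seen.

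Each fraction (12 libraries), and both together for comparisons of fractions, was filtered (filterByExpr, min.count 10), scaled by TMM and fitted in edgeR 4.0.16 (R 4.3.3) with robust quasi-likelihood tests, 1 coefficient per group. Libraries of a group varied by a common biological coefficient of 6.59% (cytoplasm) and 6.53% (chromatin), and no pair agreed within sampling noise. The scripts were tested on simulated data. Alternatives were library sizes alone, TMM on protein-coding genes or within each fraction, no filter, a replicate block, non-robust dispersion, DESeq2 1.42.0, only the groups compared, and leaving out each library. Intervals and limits for counts of 0 cover counting error only.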

Additional observations from a re-analysis of the deposited data

Results flagged for a closer look

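The response to auxin in the cytoplasm differed between DIS3-AID and control cells, by a test of the difference itself, for CLDN3 (-0.62), CDH1 (-0.46), CLDN4 (-0.46) and EPCAM (-0.44), as log2 values of the clone's response minus the control's. The difference between the untreated lines was not the same in the 2 fractions for KRT18 (-0.89) and KRT8 (-0.53), as chromatin minus cytoplasm. The clone's response to auxin differed between the fractions, as chromatin minus cytoplasm on the joint scale, for CLDN7 (0.64), KRT19 (0.62), CLDN4 (0.51), EPCAM (0.41), CDH1 (0.4) and KRT18 (0.32), of which CLDN7 and KRT19 were called under the other scalings run, with library sizes alone at 0.31 (adjusted p = 0.0447) and 0.28 (adjusted p = 0.0325). The control's response was not tested between the fractions. There CLDN7 moved with auxin by 0.46 on chromatin and -0.10 in the cytoplasm, so its value is not particular to the clone. Groups of 3 libraries were not searched for single libraries that stand apart.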

How the results depend on the processing

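Of 1574 member values recomputed under the alternatives, 1526 kept their direction or stayed uncalled, 24 lost and 23 gained a call, and 1 called value changed sign; 50 uncalled values changed sign. In the auxin-treated clone's cytoplasm CDH1, EPCAM, CLDN3, CLDN4 and CLDN7 were called lower under every alternative and omission run; DESeq2 added KRT8 (6 members) and the replicate block KRT8 and KRT18 (7). The scaling mattered most where the fractions were compared: the count of members whose auxin response in the clone was higher on chromatin went from 6 to 2 with library sizes alone, to 2 with TMM on protein-coding genes and to 2 with TMM within each fraction, and the count of all features called from 9080 to 5899, 5367 and 5305; KRT18 turned to -0.02 with library sizes alone. For auxin in the clone's chromatin, library sizes alone gave 2 members in place of 1, with EPCAM added, and omissions gave 1 to 2. For the chromatin response between lines, no filter gave 3 in place of 0, and omissions 0 to 3. For auxin in the control's chromatin, omissions gave 1 to 2 members and 2313 to 4704 of all features. For auxin in the control's cytoplasm, 11 features were called, 4 with TMM on protein-coding genes, 245 with no filter, 62 with a replicate block, 6 without robust dispersion, 75 with DESeq2, and 1 to 34 with single omissions; members stayed at 0.

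The share of called features that were higher moved with the scaling from 82.9% to 94.5% for the cytoplasmic response between lines, from 43.8% to 62% for the untreated lines in the cytoplasm, from 46.6% to 58.8% on chromatin, from 53.5% to 39% and 64% for auxin in the clone's chromatin, from 48.1% to 32.2% and 55.6% for the chromatin response between lines, from 51.2% to 61.5% and from 51.7% to 62.9% for the fractions in the control and the clone, from 49.9% to 39.2% and 54.9% for the line difference between fractions, and from 66.6% to 6.42%, 29.9% and 23.1% for the clone's response between fractions. Replicate numbers did not pair the libraries: the correlation of same-numbered libraries was over 0.1 for every pair in no comparison (-0.028 to 0.108 for auxin in the clone's cytoplasm). With the replicate block the members called in the clone's cytoplasm went from 5 to 7, with KRT8 (adjusted p = 0.0383) and KRT18 (adjusted p = 0.0315). Depth limits CLDN3 on chromatin, KRT20 and CEACAM5.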
